A study of Mus musculus with 6 samples.

Results

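The distal part of mouse chromosome 6 examined here runs from 113000000 to 137000000 on the mm10 build, a stretch of 24 Mb. Its members are the genes whose lowest exon start lies in that stretch and that had at least 10 counts in at least 3 of 6 microglia libraries, 230 of the 55401 genes counted. They were chosen by position and by those counts, which are also the values compared here. Of the 775 counted genes of the stretch, 250 met that count rule, and 20 of these were left out by name: Plxnd1, Hebp1, Atp6v1e1, Lrrc23, Foxm1 and the lectin-like genes whose symbols start with Clec or Klr. The members are therefore what remains after genes singled out from earlier results of these data were taken away, and a count over them is not a count over the whole stretch.

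The libraries hold RNA from microglia, macrophages that live within the brain and spinal cord, drawn from mouse spinal cord at 7 months of age with beads that bind CD11b, a myeloid surface integrin. There were 3 libraries from untreated non-transgenic C57BL/6 mice (NTg, replicates 7, 9 and 11) and 3 from untreated mice heterozygous for a double knock-in of hATXN2-Q33 and hTDP-43 (ATXN2-Q33;TDP-43, replicates 8, 10 and 12). Each library was a pool of 3 spinal cords, so differences between single animals are averaged within it. The labels do not say where in the genome the human sequences were inserted.

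This stretch of chromosome is dense with housekeeping genes and also holds the natural killer gene complex, a cluster of lectin-like immune receptor genes. Neighbouring genes can share a regulatory region, a promoter that fires in both directions, or reads where their exons overlap on one strand. The genes in it serve energy metabolism, transcription, immune signalling and synaptic function side by side.

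Library totals ran from 12553570 to 22854628 counts, and the members took 1.07% to 1.15% of them. Values below are CPM, counts scaled to the size of the library, on TMM-scaled library sizes, and a fold change is that of ATXN2-Q33;TDP-43 over NTg. Of the 10 marker lists examined, the microglial markers summed to between 10887 and 15869 CPM in every library, far above any other list. Neutrophil markers ran from 54.3 to 1616 CPM in ATXN2-Q33;TDP-43 and from 164 to 614 CPM in NTg, and oligodendrocyte markers from 164 to 1065 CPM and from 178 to 1604 CPM.

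The members span a wide range of levels. Of the 230, 31 had a mean above 100 CPM, 82 lay between 10 and 100 CPM, 90 between 1 and 10 CPM and 27 below 1 CPM, with a median of 9.21 CPM. By annotation 175 are protein coding and 55 are other gene types. At least 10 counts were present in all libraries for 185 members and in exactly 3 libraries for 14. The first member by position is Gm43868 and the last is Arhgdib. Just inside the count rule, with a third-highest count of 10, were Gm43868, Ghrl, Gm20531 and Gm17088. Just outside it, with a third-highest count of 9, were Mir7043, Gm44596 and Gm17089.

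Per kilobase of exon, the highest mean level was that of Ptms, which encodes parathymosin, at 223 CPM per kb. Cd9, a tetraspanin of the cell surface, had 171 CPM per kb and Rpl32, a protein of the large ribosomal subunit, had 161 CPM per kb. Gm28967 at 205 CPM per kb and Scarna10, a small Cajal body RNA, at 177 CPM per kb also rank here. These last genes have the same CPM in every library and share exons with each other and with Ncapd2 on one strand. Reads there were counted for each gene they touch, so their levels are not separate measurements. In all, 29 members share exons with another gene on their strand.

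**Figure D1:**
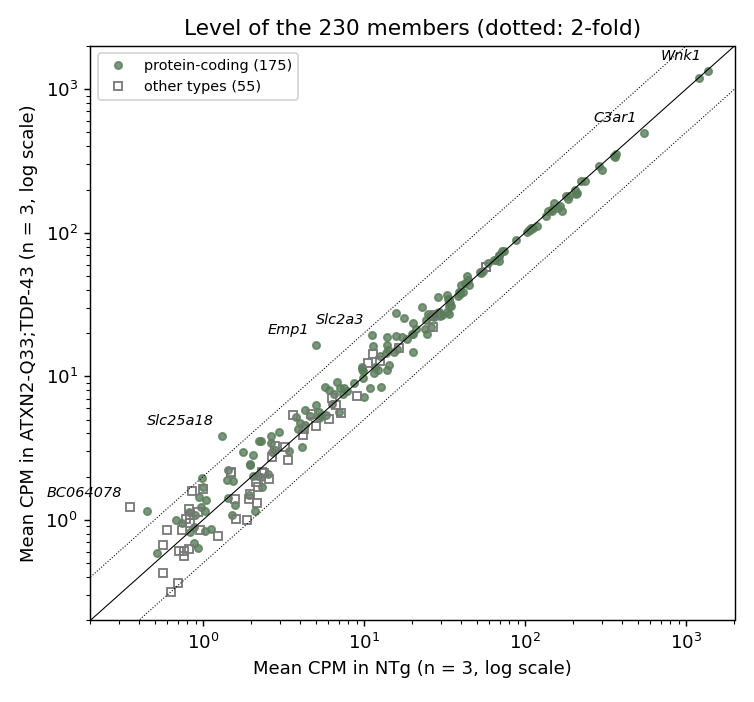
Mean CPM of each of the 230 members in NTg (horizontal axis, log scale, n = 3) against ATXN2-Q33;TDP-43 (vertical axis, log scale, n = 3), with filled circles for the 175 protein-coding members and open squares for the 55 others. Points lie along the line of equal levels and scatter more widely at low CPM; labelled members were picked after their values were seen.

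No member differed between genotypes past the threshold. With edgeR's quasi-likelihood test and Benjamini-Hochberg adjustment over 16248 genes, 0 of the 225 members tested had an adjusted p under 0.05, beside 0 of all genes tested (0%). The other 5 members were below the filter on low counts. The adjusted p of each member named with its p-value below was 0.9996 in that test. An unadjusted p under 0.05 was found for 9 members, which is 4% of those tested beside 2.26% of all genes tested. Of these 5 were higher and 4 lower in ATXN2-Q33;TDP-43, beside 1.4% and 0.862% of all genes tested in those directions. limma voom called 0 members and 0 genes at an adjusted p under 0.05, with 10 members (and 1.79% of all genes tested) at an unadjusted p under 0.05. DESeq2 called 1 member, Emp1, among 7 genes (0.0431%), with 8 members and 2.45% of all genes tested at an unadjusted p under 0.05. Leaving out 1 library at a time gave 4 to 12 members, the fewest (1.78%, beside 0.935% of all genes tested) without NTg replicate 7 and the most (5.33%, beside 4.61%) without ATXN2-Q33;TDP-43 replicate 12. Without ATXN2-Q33;TDP-43 replicate 8 there were 5 (2.22%, beside 3.08%).

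In 16 members the 3 libraries of one genotype all lay above the 3 of the other, which is 7.11% of the members tested beside 6.85% of all genes tested. In 9 of them ATXN2-Q33;TDP-43 was the higher group and in 7 the lower, with 3.27% and 3.58% of all genes tested. These shares are near the background and are not a result about the members. On the rest of chromosome 6, 32 of 571 genes tested (5.6%) had groups apart in this way, and 11 had an unadjusted p under 0.05. Among members with a mean of at least 10 CPM, 6 of 113 had an edgeR unadjusted p under 0.05, which is 5.31% beside 1.64% of all genes tested at that level. Because the stretch was proposed with results of these data in view, no test was made of that difference.

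The median log2 fold change of the members tested was -0.0006, with the middle of the distribution from -0.12 to 0.22, beside a median of 0.0083 over all genes tested. Of the members, 110 had a positive and 115 a negative log2 fold change, beside 52% positive over all genes tested. The extremes were -1.03 for Gm17088, at the edge of the count rule, and 1.90 for BC064078, also a low-count member. What the libraries bound is clearer for the better covered members. Of the 113 with at least 10 CPM, the 95% interval of the fold change lay within 2-fold for 103 (91.2%) and within 1.5-fold for 85 (75.2%). Over all genes tested at that level these shares were 96.1% and 85.8%. Over all members tested the interval lay within 2-fold for 136 (60.4%), beside 66.4% of all genes tested, and within 1.5-fold for 89 (39.6%), beside 46.8%.

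**Figure D2:**
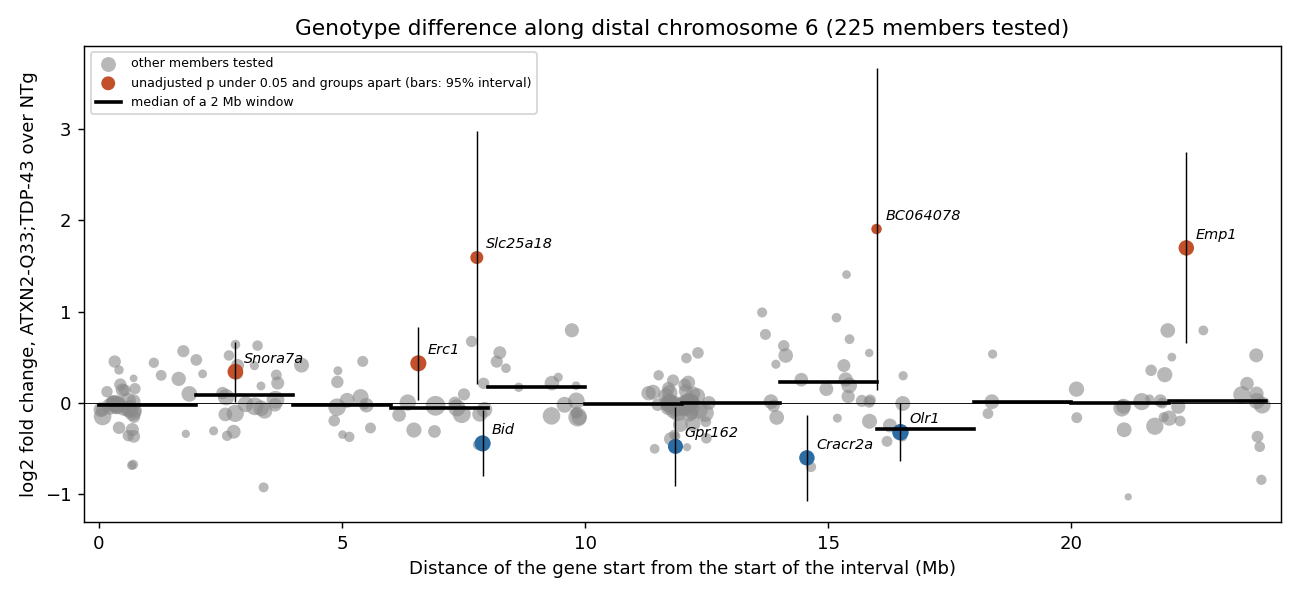
Log2 fold change of the 225 members tested (vertical axis, ATXN2-Q33;TDP-43 over NTg) against the distance of the gene start from the start of the stretch in Mb (horizontal axis). Coloured points with 95% intervals are the 9 members with an unadjusted p under 0.05 and groups apart, and short black lines are medians of 2 Mb windows, which run from -0.28 to 0.22.

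The 9 members with the smallest p-values lie scattered along the stretch, as the plot by position shows, and none passed the adjusted threshold, so the following are values. Emp1, a membrane protein of the PMP22 family with several membrane spans, lies at chr6:135362545-135383173 on the plus strand. Its NTg replicates 7, 9 and 11 had 4.19, 5.93 and 5.08 CPM, and its mutant replicates 8, 10 and 12 had 17.1, 25.3 and 7.06 CPM. All mutant libraries lay above all NTg libraries, with replicate 12 close to them and the other mutant libraries far above. Means were 5.07 ± 0.87 and 16.5 ± 9.14 CPM (SD), a log2 fold change of 1.70 ± 0.44 (SE) with a 95% interval from 0.65 to 2.74. The edgeR quasi-likelihood p was 0.0064 and the adjusted p 0.9996, whereas DESeq2 gave an adjusted p of 0.0441.

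In these bulk libraries fewer cells of a type and less RNA per cell cannot be told apart. Emp1 stood highest in ATXN2-Q33;TDP-43 replicates 8 and 10, and so did the summed neutrophil and monocyte markers. All 8 neutrophil markers and all 7 monocyte markers were detected in every library. Neutrophil markers summed to 1616 and 1038 CPM in replicates 8 and 10 against 54.3 CPM in replicate 12 and 164 to 614 CPM in NTg. Monocyte markers summed to 241 and 240 CPM there against 62.4 CPM in replicate 12 and 110 to 124 CPM in NTg. Endothelial markers summed to 98.2, 304 and 135 CPM in NTg replicates 7, 9 and 11. In mutant replicates 8, 10 and 12 they summed to 167, 320 and 97.7 CPM. Within each genotype the endothelial and oligodendrocyte sums ranked the libraries as Emp1 did. The neutrophil sum was highest among NTg libraries in replicate 7, where Emp1 was lowest. These lists were set beside Emp1 after values were seen, and their part in the Emp1 values was not tested. In mutant replicate 12, where the neutrophil and monocyte sums were the lowest of the 6 libraries, Emp1 was at 7.06 CPM, above every NTg library. Slc2a3, the glucose transporter GLUT3, was highest in the same libraries, with 25.9 and 24.2 CPM in mutant replicates 8 and 10 and 8.36 CPM in replicate 12, against 14.2, 9.29 and 10.2 CPM in NTg. Its groups overlapped, with a log2 fold change of 0.80 ± 0.43 (SE).

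**Figure D3:**
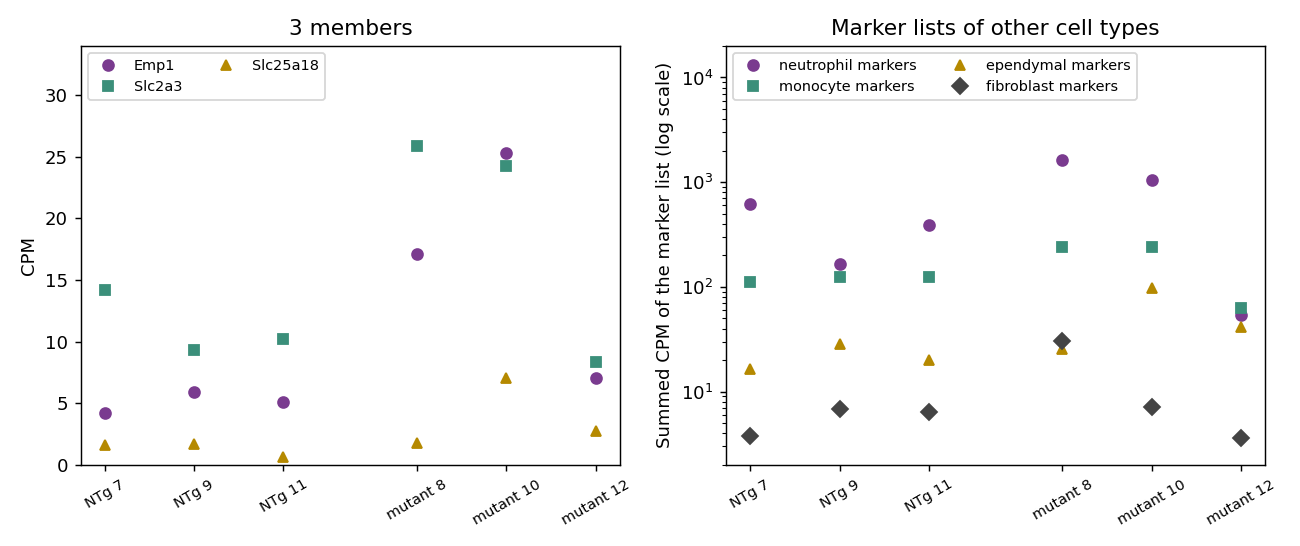
CPM of Emp1, Slc2a3 and Slc25a18 in each library (left) and summed CPM of 4 marker lists on a log scale (right), with NTg libraries to the left of the mutant libraries in each panel. Neutrophil and monocyte sums are highest in mutant replicates 8 and 10 and lowest in replicate 12; the members and lists shown were picked after their values were seen.

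Slc25a18, a mitochondrial glutamate carrier, lies at chr6:120773578-120794336. It had 1.61, 1.71 and 0.59 CPM in NTg, and in the mutant libraries 1.78, 7.06 and 2.75 CPM, in the same order of replicates. The groups do not overlap, but mutant replicate 8 lies just above the highest NTg library and replicate 10 carries most of the difference. The log2 fold change was 1.59 ± 0.61 (SE) with an edgeR p of 0.029 and an adjusted p of 0.9996, and without mutant replicate 10 it was 0.83. Ependymal markers were also highest in mutant replicate 10, at 96.7 CPM, with 25.4 and 41.1 CPM in replicates 8 and 12 and 16.3 to 28.5 CPM in NTg. Astrocyte markers were highest there too, at 155 CPM, with 106 and 138 CPM in replicates 8 and 12 and 100 to 121 CPM in NTg. Endothelial markers also peaked there, at 320 CPM, beside 304 CPM in NTg replicate 9. Within NTg, Slc25a18 was lowest in replicate 11, where the astrocyte sum was highest. Slc1a3 was the largest part of that sum, at 58.2, 62.8 and 78.7 CPM in NTg replicates 7, 9 and 11. In mutant replicates 8, 10 and 12 it had 64.4, 77.1 and 93.5 CPM. Of the astrocyte markers only Slc1a3 and Aqp4 were highest among NTg libraries in replicate 11, so the order of the sums rests largely on Slc1a3. All 6 ependymal and all 7 astrocyte markers were detected in every library. The part of these cell types in the Slc25a18 values was not tested.

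Erc1, a scaffold protein of the ELKS family, had 15.1, 14.4 and 12.5 CPM in NTg, and in the mutant libraries 18.7, 22.8 and 15.2 CPM. Mutant replicate 12 and NTg replicate 7 were nearly equal, so the groups are only just apart. Its log2 fold change was 0.43 ± 0.18 (SE), with an edgeR p of 0.036 and an adjusted p of 0.9996. Snora7a, an H/ACA small nucleolar RNA, had 10.8, 11.4 and 11.7 CPM in NTg, and in the mutant libraries 15.4, 14.4 and 13.3 CPM. Every mutant library exceeded every NTg library by at least the spread within NTg. Its log2 fold change was 0.34 ± 0.15 (SE), with an edgeR p of 0.042. Snora7a shares exons with Rpl32 on one strand, and Rpl32 had a log2 fold change of -0.11 ± 0.09 (SE).

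BC064078, annotated as a transcribed unprocessed pseudogene, had the largest log2 fold change of the members and among the fewest counts. Its libraries held 10, 1 and 4 counts in NTg and 13, 23 and 22 counts in ATXN2-Q33;TDP-43. Every mutant library reached 10 counts, but among NTg libraries only the first did. BC064078 thus met the count rule through the group in which it is higher. Its fold change, its p and its place among the members counted as higher depend on that selection. In CPM the groups were apart, the lowest mutant library at 0.964 CPM and the highest NTg library at 0.805 CPM. The log2 fold change was 1.90 ± 0.78 (SE), with an edgeR p of 0.038 and an adjusted p of 0.9996.

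The other 4 of these members had lower values in ATXN2-Q33;TDP-43. Cracr2a, a calcium-binding regulator of store-operated calcium entry, lies at chr6:127561338-127674248 on the plus strand. It had 13.7, 13.8 and 10.7 CPM in NTg, and in the mutant libraries 10.3, 6.72 and 8.15 CPM. NTg replicate 11 and mutant replicate 8 were close, and the other libraries lay well apart. The log2 fold change was -0.60 ± 0.21 (SE), with an edgeR p of 0.017 and an adjusted p of 0.9996. It shares exons with Gm43634, which had a log2 fold change of -0.70 ± 0.64 (SE).

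Bid, a BH3-only protein that links death receptors to mitochondrial apoptosis, had 19.3, 17.2 and 23.7 CPM in NTg, and in the mutant libraries 14.2, 13.7 and 16.5 CPM. All mutant libraries were lower, with mutant replicate 12 just below NTg replicate 9. Its log2 fold change was -0.44 ± 0.16 (SE), with an edgeR p of 0.022. Gpr162, an orphan G protein-coupled receptor, had 10.9, 10.5 and 8.62 CPM in NTg, and in the mutant libraries 6.60, 8.21 and 6.75 CPM. Mutant replicate 10 came within the smallest distance of an NTg library. Its log2 fold change was -0.48 ± 0.19 (SE), with an edgeR p of 0.034. Olr1, the oxidised low-density lipoprotein receptor LOX-1, had 28.9, 24.0 and 21.4 CPM in NTg, and in the mutant libraries 18.6, 21.0 and 19.8 CPM. NTg replicate 11 and mutant replicate 10 nearly met. Its log2 fold change was -0.32 ± 0.14 (SE), with an edgeR p of 0.047. Each of these genes had an edgeR adjusted p of 0.9996.

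**Figure D4:**
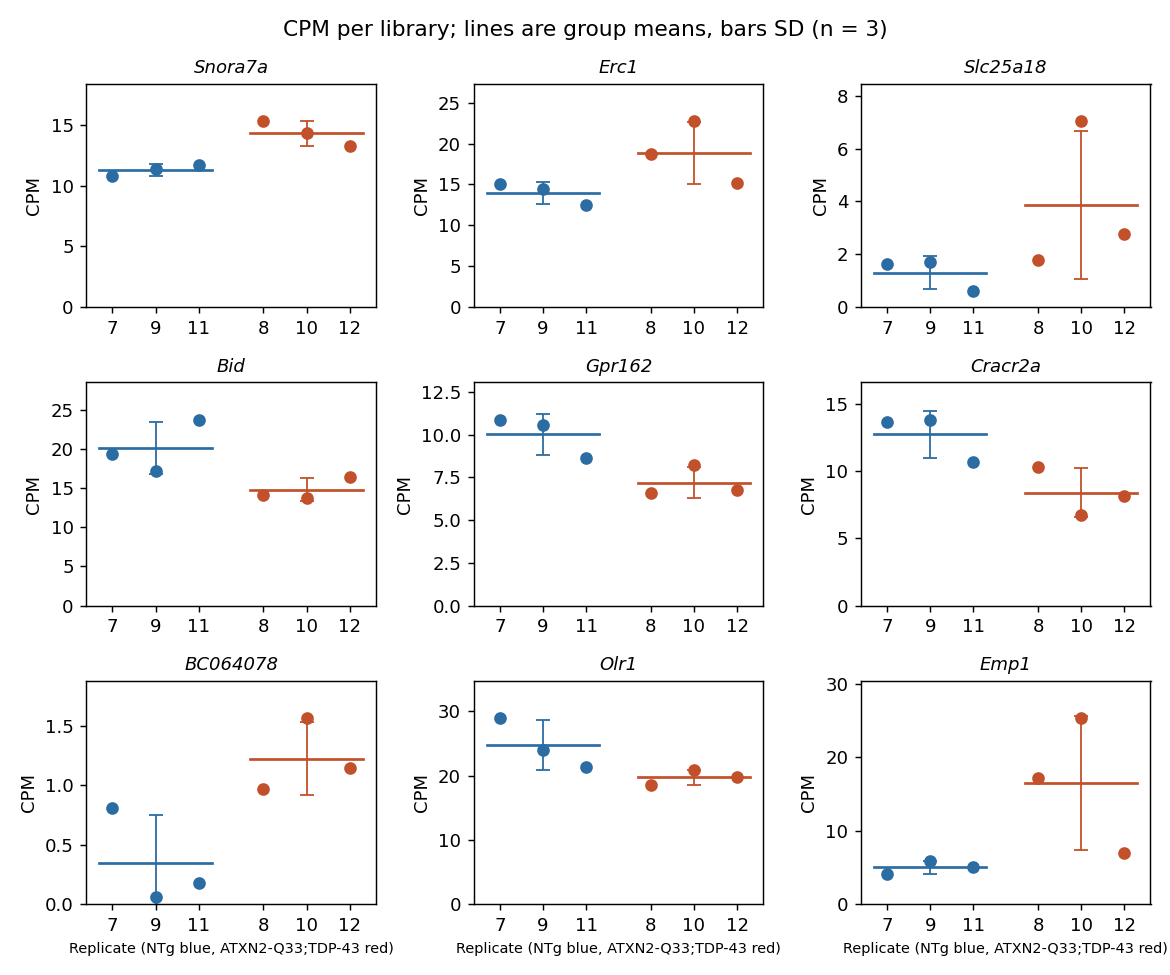
CPM in each library for the 9 members with an unadjusted p under 0.05 and groups apart, one panel per gene in order of position, with NTg replicates 7, 9 and 11 in blue and ATXN2-Q33;TDP-43 replicates 8, 10 and 12 in red. Horizontal lines are group means and bars are SD (n = 3); 5 members are higher and 4 lower in the mutant libraries, and mutant replicate 12 of Emp1 at 7.06 CPM is far below the other mutant libraries.

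The promoters of Emp1 and Cracr2a are shown because these members had the smallest p in each direction. Both come from the RefSeq table of GRCm38.p6 and cover 250 bases before to 50 bases after an annotated start, on the plus strand, at chr6:135362681-135362980 for Emp1 (the most upstream of 2 starts) and chr6:127561086-127561385 for Cracr2a. The Emp1 window lies wholly after 135362545, where the counted gene model starts, so bases upstream of that start are not shown. Capitals mark matches to any of 4 motifs searched on both strands, the TATA box TATAAA, the GC box GGGCGG, the CCAAT box CCAAT and the AP-1 site TGANTCA.
Emp1: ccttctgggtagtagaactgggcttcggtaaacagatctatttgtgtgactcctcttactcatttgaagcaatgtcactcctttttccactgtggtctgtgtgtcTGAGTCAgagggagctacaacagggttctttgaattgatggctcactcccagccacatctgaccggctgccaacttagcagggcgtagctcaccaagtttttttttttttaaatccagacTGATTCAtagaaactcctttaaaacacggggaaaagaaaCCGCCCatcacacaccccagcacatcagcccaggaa
Cracr2a: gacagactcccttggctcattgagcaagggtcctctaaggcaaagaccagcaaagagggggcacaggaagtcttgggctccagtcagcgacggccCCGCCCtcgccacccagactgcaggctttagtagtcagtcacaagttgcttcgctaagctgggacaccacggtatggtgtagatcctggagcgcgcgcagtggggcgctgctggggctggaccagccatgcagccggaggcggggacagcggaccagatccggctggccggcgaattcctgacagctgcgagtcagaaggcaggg
The Emp1 window held AP-1 letters at -145 and -25 and a GC box on the reverse strand at 15, counted from 1 at the start, and no TATAAA or CCAAT. The Cracr2a window held a GC box on the reverse strand at -155 and none of the other motifs. Base composition differed between them, with 46.67% G and C and 5 CpG in Emp1 and 63.33% and 17 CpG in Cracr2a. Of 32851 promoters of that length, 7.808% held the AP-1 letters, 35.66% the GC box, 37.41% CCAAT and 13.62% TATAAA. A match is a description of these letters, not a site or a cause. Of the 230 members, 140 had a promoter in that table.

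The other 7 members with groups apart had an unadjusted p above 0.05. Of these Hist4h4, Pex26, Pex5 and Rad52 were named after their values were seen. Hist4h4, a histone H4 gene, had a log2 fold change of 0.52 ± 0.23 (SE), Ift122, a protein of intraflagellar transport, 0.41 ± 0.18 (SE), and Pex26, a peroxisomal membrane protein, 0.45 ± 0.28 (SE). The values were 0.12 ± 0.11 (SE) for Pex5, the receptor that brings proteins into peroxisomes, and -0.31 ± 0.22 (SE) for Rad52, a recombination protein. They were -0.16 ± 0.09 (SE) for C3ar1, the receptor of complement fragment C3a, and -0.14 ± 0.08 (SE) for M6pr, a mannose 6-phosphate receptor of lysosomal enzyme sorting. C3ar1 had 559, 552 and 544 CPM in NTg, and in the mutant libraries 490, 457 and 537 CPM, with mutant replicate 12 just below the NTg range.

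Laid out along the stretch, the medians of 2 Mb windows showed no long block of one direction. The lowest was -0.28 over the 6 members tested from 129 to 131 Mb, of which 5 were negative. The highest was 0.22 over the 20 members tested from 127 to 129 Mb, of which 16 were positive. These values lie outside the 10th and 90th percentiles, -0.07 and 0.13, of 900 windows of the genome with at least 5 genes tested, which ranged from -0.32 to 0.95. The genome windows kept every gene tested and start at even megabases. The windows here start at 113 Mb and lack the genes left out by name, so the medians are of unlike sets. Among the tested genes left out of the lowest window, Clec12a at 0.61 alone was positive. Clec2d at -0.19, Clec1b at -1.80, Clec1a at -1.22 and Clec7a at -0.83 were negative, as the window's median was. Windows that hold few genes vary more, and the highest and lowest of a set lie toward its ends by choice. Members with groups apart were spread over 7 windows, with 1 to 4 in each. The window with 4, from 119 to 121 Mb, held Erc1 and Slc25a18 at higher values and Rad52 and Bid at lower ones in ATXN2-Q33;TDP-43.

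Adjacent members shared the sign of their difference about as often as adjacent genes elsewhere. Of 224 adjacent pairs, 124 (55.4%) had the same sign, beside 8695 of 16226 pairs (53.6%) over all chromosomes. Members 10 places apart shared it in 118 of 215 pairs (54.9%). Leaving out pairs with shared exons gave 117 of 211 pairs (55.5%). Pairs on the same strand shared the sign in 68 of 123, pairs head to head in 31 of 50 and pairs tail to tail in 25 of 51. Of the head-to-head pairs with ends within 1 kb of each other, a class set after values were seen, 10 of 15 shared it, and 13 of 20 with those overlapping by any length. There were 0 adjacent pairs of members with groups apart in the same direction, beside 61 of 16226 pairs over all chromosomes (0.376%). Likewise 0 adjacent pairs both had an unadjusted p under 0.05 in edgeR's test. Genes left out by name were skipped in the member pairs but kept in the pairs over all chromosomes. Of those left out, 8 had groups apart. Ift122 and Olr1, members with groups apart, lie beside Plxnd1 and Clec7a, which were left out and differed in the same direction. The counts of 0 thus follow the removal of such neighbours and are not like for like with all chromosomes.

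**Figure D5:**
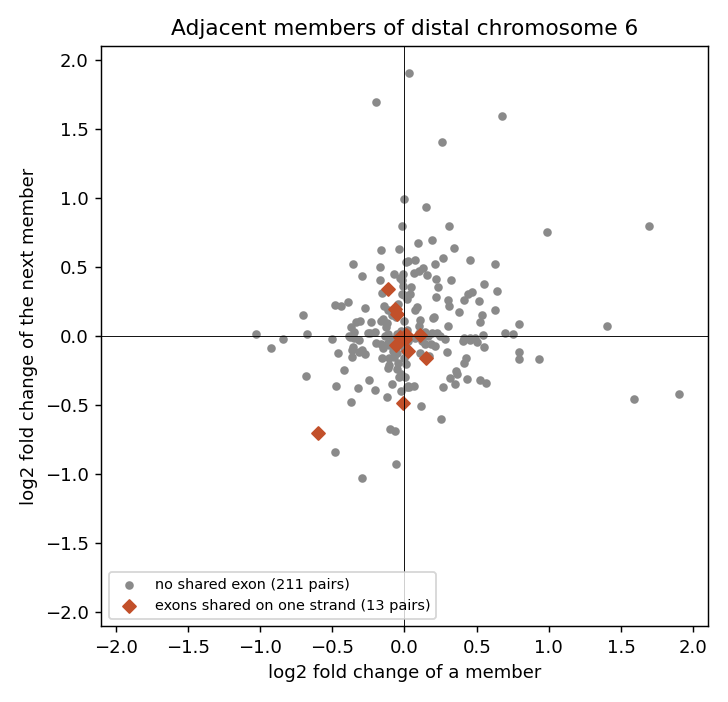
Log2 fold change of each member (horizontal axis) against that of the next member along the chromosome (vertical axis), with grey circles for 211 pairs without shared exons and red diamonds for 13 pairs that share exons on one strand. Points fall in all quadrants, and 124 of the 224 pairs lie in the quadrants of equal sign.

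The 13 pairs with shared exons differed by a median of 0.11 in log2 fold change, beside 0.30 for the 211 other pairs. Reads counted for both genes stand in both values there. One of these pairs, Scarna10 and Gm28967, has identical values.

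The members formed 101 runs of one sign with a mean length of 2.23, beside 2.15 over all chromosomes, where the longest run had 19 genes. The longest run of members was 10 genes from Tpi1, the glycolytic triosephosphate isomerase, to Cops7a, a COP9 signalosome subunit. All 10 were negative with a median log2 fold change of -0.09, and it includes Gpr162. A run of 9 positive members from Tulp3 to Gm44067 had a median of 0.26, and Emp1 opened a run of 7 positive members to Wbp11 with a median of 0.21. A run of 7 negative members from Gm44200 to Mir7042 had a median of -0.29. Run ends were named after their values were seen. Genes left out by name were skipped in the runs of members but kept in those over all chromosomes. Foxm1 at 0.68 and Klrb1b at -0.60, both left out, lie within the run from Tulp3. Klrb1b would break that run in the full gene order. Membership of a run needs only a sign, and 0 runs of 3 or more members had groups apart throughout.

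Members beside the genes left out by name had differences of varied sign and size. Of those genes 19 were tested and 8 had an edgeR unadjusted p under 0.05, none with an adjusted p under 0.05. Plxnd1, a semaphorin receptor, had a log2 fold change of 1.62 ± 0.18 (SE), while its neighbour Ift122 had 0.41 ± 0.18 (SE) and Tmcc1 on the other side had -0.01 ± 0.10 (SE). Hebp1, a heme-binding protein, had 0.79 ± 0.13 (SE), with Gprc5a at 0.50 ± 0.60 (SE) and Fam234b at -0.04 ± 0.14 (SE). Atp6v1e1, a subunit of the vacuolar proton pump, had -0.44 ± 0.09 (SE). By order of start, Slc25a18 at 1.59 ± 0.61 (SE) came before it and Gm25193 at -0.46 ± 0.42 (SE) after it. Gm25193 is a miRNA model with a mean of 1.66 CPM that starts only 3.27 kb from the start of Atp6v1e1. The next member, Bcl2l13, had -0.12 ± 0.11 (SE). Around Lrrc23, at 1.52 ± 0.45 (SE), lay Eno2 at -0.39 ± 0.32 (SE) and Spsb2 at 0.25 ± 0.25 (SE).

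Foxm1, a transcription factor of the cell cycle, had a log2 fold change of 0.68 ± 0.17 (SE). Its neighbours were Rhno1 at 0.26 ± 0.16 (SE) and Tex52 at 1.41 ± 0.74 (SE), and Tex52 shares exons with Foxm1 on one strand. Clec7a, the beta-glucan receptor dectin-1, had -0.83 ± 0.10 (SE). Before it by position lay Clec12a at 0.61 ± 0.33 (SE), Clec1b at -1.80 ± 0.52 (SE) and Clec1a at -1.22 ± 0.30 (SE), also left out. In order of start, Clec1b, Clec1a, Clec7a and the member Olr1 were thus all lower in ATXN2-Q33;TDP-43. Olr1, whose start lies 23.7 kb from that of Clec7a, had -0.32 ± 0.14 (SE), and Cd69, an early activation receptor on the other side of the lectin genes, had -0.25 ± 0.17 (SE). Near the start of the stretch, Gt(ROSA)26Sor, the transcript of a locus widely used for transgene insertion, had -0.07 ± 0.26 (SE). It had 6.68, 5.20 and 8.13 CPM in NTg, and in the mutant libraries 7.57, 4.68 and 6.80 CPM, and the groups overlapped. Setd5, which starts head to head with it across 31 bases and resembles histone methyltransferases, had -0.15 ± 0.09 (SE).

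By function, 110 members stood on 9 lists of 143 genes of the stretch, and 0 passed the edgeR adjusted threshold on any list. The lists were drawn up with earlier results known, and their counts are descriptions. Of 18 immune receptor and signalling genes tested, 5 were positive and 13 negative, with a median log2 fold change of -0.07. Olr1 alone had an unadjusted p under 0.05, and Usp18, an interferon-induced protease that removes ISG15, had 0.55 ± 0.33 (SE). Of 13 genes of glycolysis, mitochondria and peroxisomes, 8 were positive and 5 negative with a median of 0.01. Besides Slc25a18 and Slc2a3, the smallest p there was that of Tigar, a regulator of glycolysis, at 0.63 ± 0.38 (SE).

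Of 12 genes of RNA processing and ribosomes, 6 were positive and 6 negative, with a median of 0.0005. Rpusd3, a pseudouridine synthase family member, had 0.36 ± 0.46 (SE) and Mkrn2, a makorin ring finger protein, had -0.13 ± 0.17 (SE). Of 23 genes of chromatin, DNA repair and cell cycle, 14 were positive and 9 negative with a median of 0.09. Ccnd2, cyclin D2, had 15.6, 23.2 and 14.2 CPM in NTg, and in the mutant libraries 25.7, 32.7 and 17.7 CPM. Those groups overlapped, and its log2 fold change was 0.52 ± 0.26 (SE). Cdkn1b, the cyclin-dependent kinase inhibitor p27, had 0.31 ± 0.16 (SE).

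Of 5 genes of apoptosis and autophagy, 1 was positive and 4 were negative, with a median of -0.04. Beside Bid stood Atg7, an enzyme of autophagosome formation, at 0.26 ± 0.14 (SE) and Bcl2l13, a mitochondrial BCL2 family protein, at -0.12 ± 0.11 (SE). Of 11 genes of kinases, phosphatases and small GTPase signalling, 5 were positive and 6 negative with a median of -0.01. Dusp16, a phosphatase of MAP kinases, had -0.26 ± 0.13 (SE) and the deubiquitinase Usp5 had -0.08 ± 0.12 (SE). Of 9 genes of secretory and membrane traffic, 4 were positive and 5 negative with a median of -0.06, and Vamp1, a synaptobrevin of vesicle fusion, had -0.23 ± 0.14 (SE).

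Of 12 neuronal and glial genes tested, 9 were positive and 3 negative, with a median of 0.31, and 0 had an unadjusted p under 0.05 in edgeR's test. Grin2b, an NMDA receptor subunit, had 1.77, 0.264 and 0.953 CPM in NTg, and in the mutant libraries 2.30, 1.15 and 1.66 CPM. Its groups overlapped at these low levels, and its log2 fold change was 0.79 ± 0.63 (SE). Slc6a11, a GABA transporter, had 0.44 ± 0.52 (SE) and Clstn3, a synaptic calsyntenin, had -0.50 ± 0.62 (SE). Oligodendrocyte markers summed to 178, 1604 and 440 CPM in NTg against 343, 1065 and 164 CPM in the mutant libraries, astrocyte markers to 100 to 121 and 106 to 155 CPM, and neuronal markers to 15.1 to 18.7 and 13.7 to 28.0 CPM. Each of these markers was detected in every library, and their part in the list's values was not tested.

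Of 7 vascular, matrix and epithelial genes, 4 were positive and 3 negative with a median of 0.17. Emp1 had the smallest p of the list, Gprc5a, an orphan receptor induced by retinoic acid, had 0.50 ± 0.60 (SE) and Mgp, the matrix Gla protein, had -0.48 ± 0.89 (SE). Endothelial markers summed to 98.2, 304 and 135 CPM in NTg against 167, 320 and 97.7 CPM in the mutant libraries. Fibroblast markers summed to 3.79, 6.85 and 6.45 CPM in NTg against 30.1, 7.06 and 3.64 CPM in the mutant libraries. In 4 libraries 1 or 2 of the 6 fibroblast markers were at 0. Both sums overlapped between genotypes, and their part in the list's values was not tested.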

How the data were processed

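RNA was sequenced from 6 microglia libraries, rRNA depleted and made with a stranded pico-input kit, per the labels' protocols. The deposited values are unnormalised counts of fragments by gene, made by the authors with featureCounts 1.6.1 on GENCODE vM25, strand setting 2, per the file headers; a fragment touching several genes was counted for each. Trim Galore 0.4.1, FastQC, TopHat2 and DESeq2 with the mm10 build were named in the submitters' processing notes. The 6 columns of other samples were not used. Gene types such as protein coding were taken from an earlier GENCODE release than vM25, matched by gene identifiers without their version.

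Genes passing filterByExpr (minimum count 10) entered a quasi-likelihood test of edgeR 4.0.16, run under R 4.3.3 (TMM, robust quasi-likelihood fit, Benjamini-Hochberg over 16248 genes, threshold 0.05). Fold changes are unshrunk coefficients of that fit. They replaced a refit with per-gene dispersions after values were seen, because standard errors derived from the refit broke down near zero. Standard errors are the fold change over the root of F, with 95% intervals by the t distribution. As alternatives DESeq2 1.42.0 and limma 3.58.1 (voom) were run, and the edgeR step was tested on simulated data. The chi-square per degree of freedom between library pairs ranged between 6.56 and 37.2, so none were counted as 1 sample. Depth limits precision most for the 27 members under 1 CPM. With 3 against 3 libraries an exact two-sided permutation test cannot go below 0.1, so none is quoted for single genes.

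The members and lists were chosen with earlier results of these data known. The rule for named genes takes up to 12 members per direction with the smallest p among those with an unadjusted p under 0.05 and groups apart, the 5 with the highest CPM per kb, up to 3 per list with the smallest p, the members of any run of 3 or more with groups apart, the first and last member, those at the count threshold, and Gt(ROSA)26Sor; neighbours of genes left out were added.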

Additional observations from a re-analysis of the deposited data

How the results depend on the processing

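All 9 members with an unadjusted p under 0.05 and groups apart kept their sign in each of the 14 or 15 alternatives that gave them a value, but most lost the unadjusted threshold in several. In log2 fold change Emp1 ranged from 1.24 to 2.06 (p under 0.05 in 14 of 15), Bid from -0.68 to -0.30 (12 of 15), Cracr2a from -0.77 to -0.35 (11 of 15), Slc25a18 from 0.83 to 2.71 (11 of 14), BC064078 from 1.41 to 3.22 (9 of 14), Erc1 from 0.27 to 0.60 (9 of 15), Gpr162 from -0.58 to -0.26 (9 of 15), Olr1 from -0.42 to -0.11 (7 of 15) and Snora7a from 0.29 to 0.40 (7 of 15). The lowest sizes of Cracr2a, Gpr162, Olr1 and Snora7a came with a covariate for NTg replicates 7 and 9, whose alignments the headers name as combined, a fit that rests on NTg replicate 11 alone. Olr1 was at -0.20 without NTg replicate 7, Erc1 at 0.27 without ATXN2-Q33;TDP-43 replicate 10, and BC064078 at 3.22 without NTg replicate 7. The adjusted p of Emp1 ran from 0.0441 under DESeq2, at a log2 fold change of 1.70, to 0.999999. DESeq2 called 1 member and the other alternatives 0. The count of members with an unadjusted p under 0.05, 9 in edgeR, was 3 (1.33%) with the covariate, beside 0.979% of all genes tested, and 4 to 12 without 1 library, beside 0.935% to 4.61%. With a block of neighbouring sample codes it was 24 (10.7%), beside 8.62%, and 71 genes (0.437%) but 0 members passed the adjusted threshold, against 0 genes without it. Ccnd2, whose groups overlap, had an edgeR p of 0.00068 and an adjusted p of 0.0923 with the block. The labels name no such pairs, but the chi-square per degree of freedom was lowest for them, 6.56, 9.46 and 11.7. Members with groups apart, 16 in all libraries, numbered 31 to 44 (13.8% to 19.6%) when 3 libraries were set against 2, beside 11.7% to 19.5% of all genes tested. The median of members was 0.0396 with the covariate and -0.0143 to 0.0195 without 1 library. The highest window median was 0.42 in 1 Mb windows, over 4 genes, or 0.28 among those with at least 5, 0.022 in 4 Mb windows and 0.18 to 0.33 without 1 library. The lowest was -0.12 in 4 Mb windows, -0.10 with the covariate and -0.33 to -0.14 without 1 library. The share of adjacent pairs with the same sign was 52.7% to 62.1% without 1 library. Refitting fold changes with per-gene dispersions, added after the data were seen, moved none of these summaries. Beyond the fewer libraries or genes that an alternative uses, the cause was not tested. The groups share no replicate number, so the block, which pairs neighbouring sample codes across genotypes, was set by code order and not by the labels.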
